A study of Gossypium hirsutum with 6 samples.

Results

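The genes described here encode the building blocks of microtubules and proteins that move along or cut them, measured on Affymetrix cotton arrays in leaves of the upland cotton (Gossypium hirsutum) cultivar Bikaneri Nerma. They are 3 alpha-tubulin genes (TUA10, TubA2 and TUA6), 2 beta-tubulin genes (BTub4 and BTub3), the kinesin genes KIS13A1 and kch2, and the katanin gene. All probe sets that the platform's gene table pairs with exactly 1 of these 8 genes were used, which gave 10 of the 24029 probe sets tested and 8 of the 520 genes that have such a probe set. The 3 drought samples came from field plots that were no longer irrigated once plants were at peak flowering, and were taken 18 to 19 days later at a soil moisture of 19.5%, which was 50% of the control level. The 3 control samples came from irrigated plots of the same cultivar. Each arm had 6 plots, a rain shelter was moved over the drought plots when it rained, and every sample was hybridised to 1 array. Samples of an arm are labelled as biological replicates but are not tied to plots, so the p-values cover the spread between these samples, whatever its source.

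Microtubules are hollow filaments built from dimers of alpha- and beta-tubulin, so a cell needs both proteins to build them. In plant cells they form a cortical array beneath the plasma membrane that guides cellulose synthase complexes, and they also form the mitotic spindle and the phragmoplast. Kinesins are motor proteins that move along or depolymerise microtubules, and katanin severs them. In cotton the tubulins are best known from the seed fibre, an elongated epidermal cell.

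The deposited values are log2 values centred so that the median of each probe set over the 6 arrays is 0. A value therefore says how far an array lies above or below the middle of that probe set, and no level can be compared between genes. The precision of every value is limited by the number of arrays. Because the median of 6 values lies midway between the middle pair, the drought and control values nearest to 0 mirror each other wherever the groups do not overlap. Over all tested probe sets 55.7% passed a Benjamini-Hochberg adjusted p of 0.05 in limma, and the median difference, drought minus control, was 0.12 log2 units. Among calls 63.4% were higher in drought as deposited. The share was 35.5% after spike-in centring, in which each array's median over 27 spiked hybridisation controls is subtracted, and which moved the median difference to -0.13. The share was 53.1% with median centring of each array and 50.9% after quantile normalization. The spike-in medians ran from 0.01 to 0.25 on the drought arrays and from -0.14 to -0.01 on the control arrays. Subtracting them shifts all probe sets of an array together, so adjusted p-values after it are not comparable with those as deposited. Reporter probe sets match sequences that cotton does not have. Of 52 such probe sets 9 passed, and the largest of these differences was 0.51 log2 units in size.

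Among the 10 probe sets, 9 were lower in drought at the threshold, none was higher and 1 did not pass. Of all tested probe sets 35.3% were called higher and 20.4% lower, and lower calls made up 35.7% of the 697 probe sets paired with 1 gene. The 3 alpha-tubulin genes fell by 4-fold or more on the probe set used for each, whereas BTub4 fell by 1.42-fold and BTub3 did not pass. The 2 kinesin genes and katanin fell by 1.26-fold to 1.39-fold. A fall of at least 2-fold was called for 5 of the 10 probe sets, all of them alpha-tubulin, and for 8.63% of all tested probe sets.

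**Figure D1:**
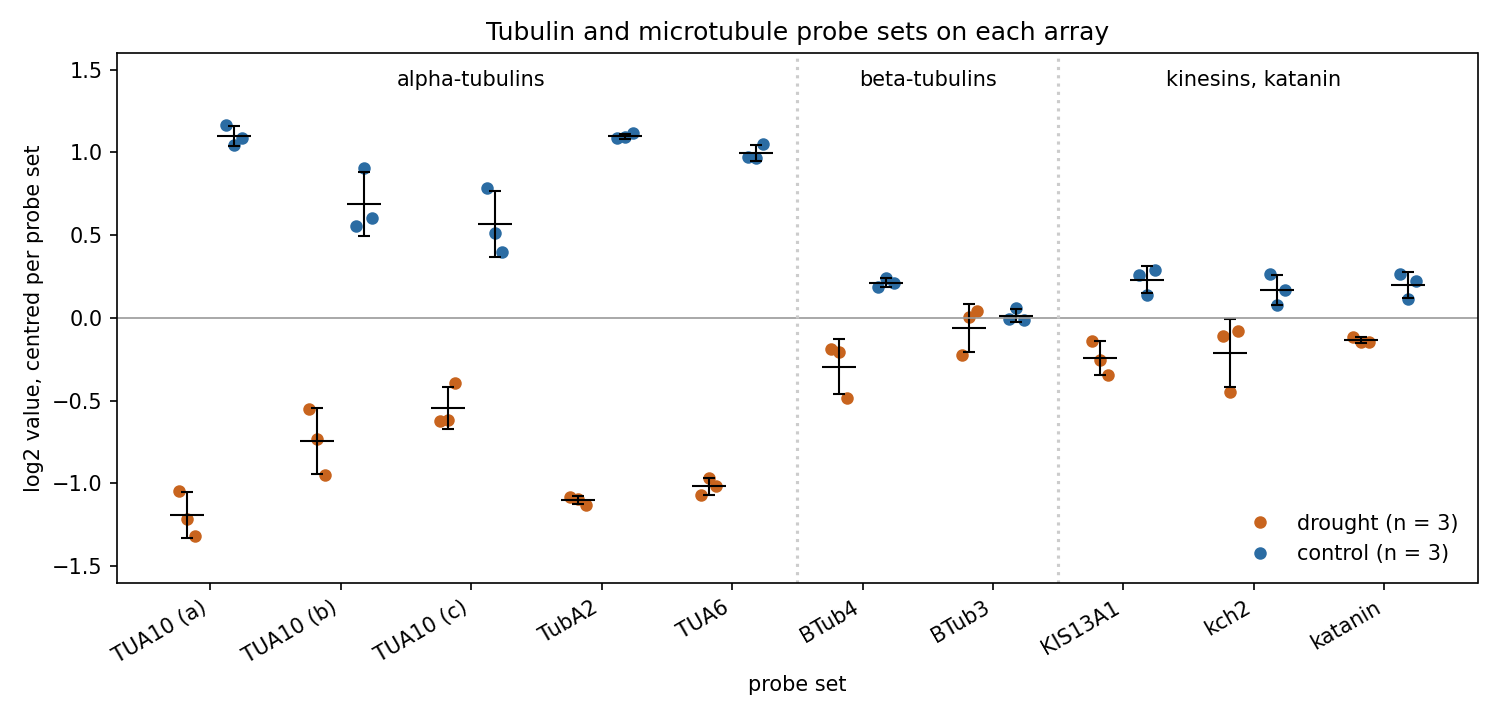
Log2 values centred per probe set (vertical axis) of the 10 probe sets on each of the 3 drought and 3 control arrays; points are arrays, long horizontal bars are group means and error bars are SD. TUA10 (a), (b) and (c) are the probe sets of 1 gene. The drought arrays of all 5 alpha-tubulin probe sets lie at -0.396 or below and the control arrays at 0.396 or above, while the groups of BTub3 overlap.

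TUA10 (LOC107905189, also named TubA4) was read by 3 probe sets. On the sense-design probe set, TUA10 (a), the drought arrays had values of -1.04, -1.21 and -1.32, against 1.16, 1.04 and 1.09 on the control arrays. The closest drought and control arrays were thus 2.09 log2 units apart. The difference was -2.29 (SE 0.09, 4.89-fold, limma adjusted p = 8.20e-08). On the antisense-design probe set TUA10 (b) the drought values were -0.55, -0.73 and -0.95, against 0.55, 0.91 and 0.60 in control, a difference of -1.43 (SE 0.13, adjusted p = 1.91e-05 in limma). On TUA10 (c), also of antisense design, they were -0.62, -0.62 and -0.40, against 0.78, 0.51 and 0.40 in control, a difference of -1.11 (SE 0.11, adjusted p = 4.91e-05 in limma). All 3 probe sets placed every drought array below every control array. This held for 9 of the 10 probe sets described, and for 22.7% of all tested probe sets. The 95% interval of TUA10 (a), from -2.49 to -2.09, lay below those of (b) and (c), so the size of the fall in this gene depended on the probe set. The mean over the 3 was -1.61.

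TubA2 (LOC107898755), a second alpha-tubulin gene, had values of -1.08, -1.09 and -1.13 on the drought arrays, against 1.08, 1.09 and 1.11 on the control arrays. Within each group the arrays lay within 0.05 log2 units of each other, and the residual SD of 0.021 was the lowest of the 10 probe sets, where the median residual SD over all tested probe sets was 0.11. TubA2 fell by 2.20 log2 units (4.59-fold, SE 0.06, limma adjusted p = 1.72e-08).

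TUA6 (LOC107886968, also named TubA1 and ATub3), another alpha-tubulin gene, had values of -1.07, -0.96 and -1.02 on the drought arrays, against 0.97, 0.96 and 1.05 on the control arrays. It fell by 2.01 log2 units (4.04-fold, SE 0.07, limma adjusted p = 4.43e-08). The groups were again fully apart, by 1.93 log2 units at the closest. Across all tested probe sets, 3.72% had a more negative difference than TUA10 (a), 3.93% than TubA2 and 4.42% than TUA6. Fewer cells of a type and less RNA per cell cannot be told apart in these whole-leaf samples.

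Of the beta-tubulin genes, BTub4 (LOC107936697) had values of -0.19, -0.21 and -0.49 on the drought arrays, against 0.19, 0.24 and 0.21 on the control arrays. All drought arrays were below all control arrays, with drought replicate 3 lower than the other two. BTub4 fell by 0.51 log2 units (1.42-fold, SE 0.09, limma adjusted p = 0.00171). A difference of that size was also reached by a reporter probe set.

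BTub3 (LOC107925867), the other beta-tubulin gene, had values of -0.23, 0.01 and 0.04 on the drought arrays, against -0.01, 0.06 and -0.01 on the control arrays. Apart from drought replicate 1 the arrays lay close together, and the groups overlapped. The difference was -0.07 (SE 0.09, 95% interval -0.27 to 0.13, limma adjusted p = 0.518). The interval covers small changes of either sign and does not show that the level was the same. Without drought replicate 1 the difference was 0.01, and with spike-in centring it was -0.32 and passed (limma adjusted p = 0.0459). That call carries little weight, since spike-in centring adds array shifts shared by all probe sets, which the p-value treats as independent.

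Alpha- and beta-tubulins were set side by side within each array, as the mean of the 3 alpha-tubulin genes minus the mean of the 2 beta-tubulin genes, each gene being the mean of its probe sets. The alpha-tubulin mean was -0.96, -0.97 and -1.01 on the drought arrays, against 0.96, 0.96 and 0.95 on the control arrays. The beta-tubulin mean was -0.21, -0.10 and -0.22 on the drought arrays, against 0.09, 0.15 and 0.10 on the control arrays. The alpha mean thus separated the groups far more widely than the beta mean. The alpha minus beta difference averaged -0.81 ± 0.06 on the drought arrays and 0.85 ± 0.03 on the control arrays (SD, n = 3 each). Alpha-tubulin signal relative to beta-tubulin signal thus differed by -1.65 log2 units, or 3.14-fold, and was lower in drought. No test was made of this mean, since the genes were chosen with earlier results known. The 6 pairs of 1 alpha- and 1 beta-tubulin gene took only the probe set used for each gene. TUA10 was thus TUA10 (a) there, and not the mean of its probe sets. The drought minus control change of the within-array difference ran from -2.22 (TUA10 (a) with BTub3) to -1.51 (TUA6 with BTub4) log2 units. In every pair all drought arrays lay below all control arrays. The two-sided exact permutation p was 0.1 for each pair and 0.1 after adjustment over the 6 pairs, which is the smallest p that this permutation test can give with 3 arrays against 3, so it could not pass 0.05 whatever the values. No other test of the contrast was made.

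**Figure D2:**
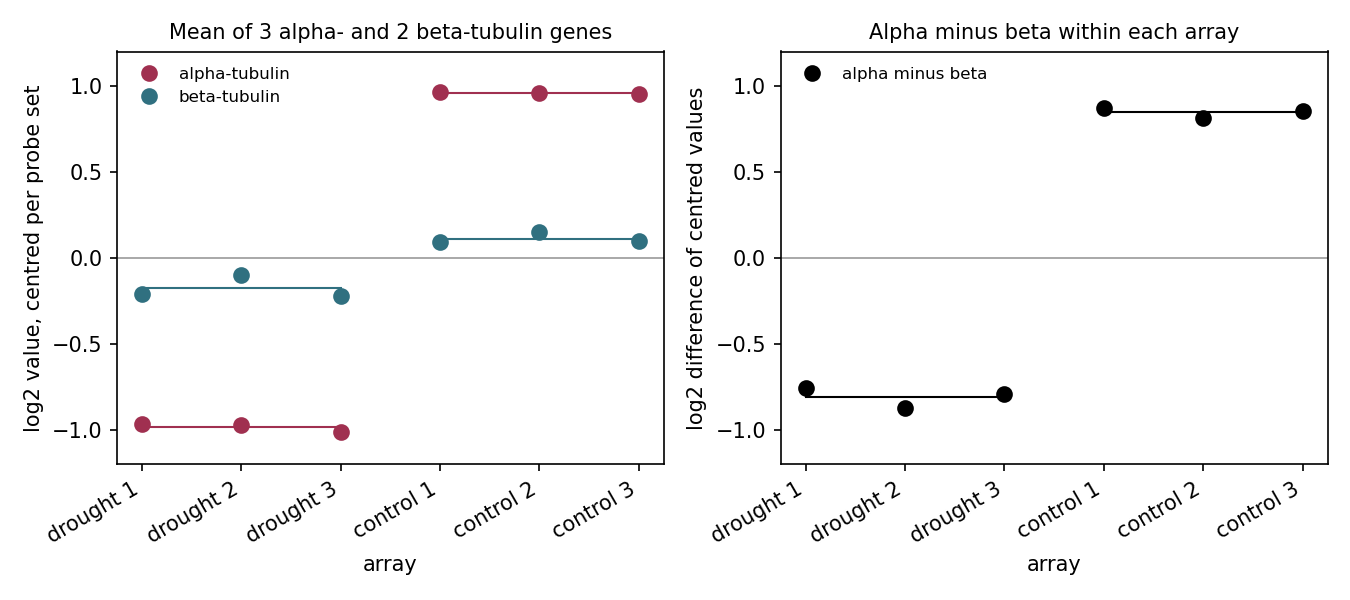
Left, mean log2 value (centred per probe set) of the 3 alpha-tubulin and of the 2 beta-tubulin genes on each array; right, their difference within each array. Points are arrays and lines are group means. The alpha-tubulin mean differs by -1.94 log2 units between drought and control and the beta-tubulin mean by -0.29, and the difference between them is negative on all 3 drought arrays and positive on all 3 control arrays.

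This contrast holds for the probe sets paired with these 5 genes, and other probe sets of the same sequence clusters on the array gave other values. The cluster of a probe set is the number in its ID. BTub3 shares its cluster with a sense-design probe set that has no gene in the platform table. That probe set had values of -1.27, -1.04 and -1.31 on the drought arrays, against 1.08, 1.09 and 1.04 on the control arrays. It fell by 2.28 log2 units (SE 0.09, limma adjusted p = 8.27e-08), as far as the alpha-tubulins, while BTub3's own probe set did not pass. BTub4 shares its cluster with 2 antisense-design probe sets, and both rose. The larger rise, on a probe set without a gene, was 1.87 (SE 0.09, adjusted p = 3.36e-07 in limma), with drought values of 1.02, 0.82 and 0.96 against -1.05, -0.93 and -0.82 in control. The other, paired with LOC107957987, rose by 0.65 (SE 0.07, adjusted p = 8.99e-05 in limma).

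The further probe sets in the clusters of TUA10 all fell, by amounts that differed widely. In the cluster of TUA10 (a) and (b), both remaining probe sets fell, the sense-design one by 1.64 and the antisense-design one by 0.44 on the log2 scale, so all 4 probe sets of that cluster moved downward. TUA10 (c) lies in a different cluster, which the platform table pairs with 3 genes. There a probe set of LOC107896815, a lipid transfer protein gene with LTP1 among its names, fell by 0.65 (SE 0.07), and an antisense-design probe set of LOC107896372 fell by 7.88 (SE 0.15, limma adjusted p = 2.28e-09). On that probe set the drought arrays had values of -3.66, -4.08 and -3.98, against 4.12, 3.66 and 4.12 on the control arrays. The value of TUA10 (c) is therefore not shown to belong to TUA10. With sense-design probe sets alone, which leaves out TUA10 (b) and (c), the alpha minus beta difference was -1.88. In all, 7 further probe sets lay in the 9 clusters of the 10 probe sets described, of which 5 fell and 2 rose. Those that fell include the probe sets of LOC107896815 and LOC107896372. Of all tested probe sets 20.4% were called lower and 35.3% higher. TubA2, TUA6, KIS13A1, kch2 and katanin were each alone in their cluster.

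In a further pair of probe sets, each is paired with 2 alpha-tubulin genes at once, so neither is given a gene name. They moved in opposite directions. One rose by 0.53 (SE 0.07, limma adjusted p = 0.000261), with drought values of 0.37, 0.23 and 0.25 against -0.24, -0.23 and -0.28 in control. The other fell by 0.86 (SE 0.07, limma adjusted p = 1.16e-05), with drought values of -0.38, -0.51 and -0.49 against 0.39, 0.38 and 0.45 in control. Alpha-tubulin probe sets other than the 5 described thus did not all fall, although the rise no longer passed with spike-in centring (0.28, limma adjusted p = 0.0706). Upland cotton carries 2 related genomes and many tubulin genes, and 9 of the 10 probe sets have an ID suffix that marks probes shared with other sequences (5 with _s and 4 with _x). Copies of a tubulin gene, and close relatives of it, therefore cannot be told apart here.

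**Figure D3:**
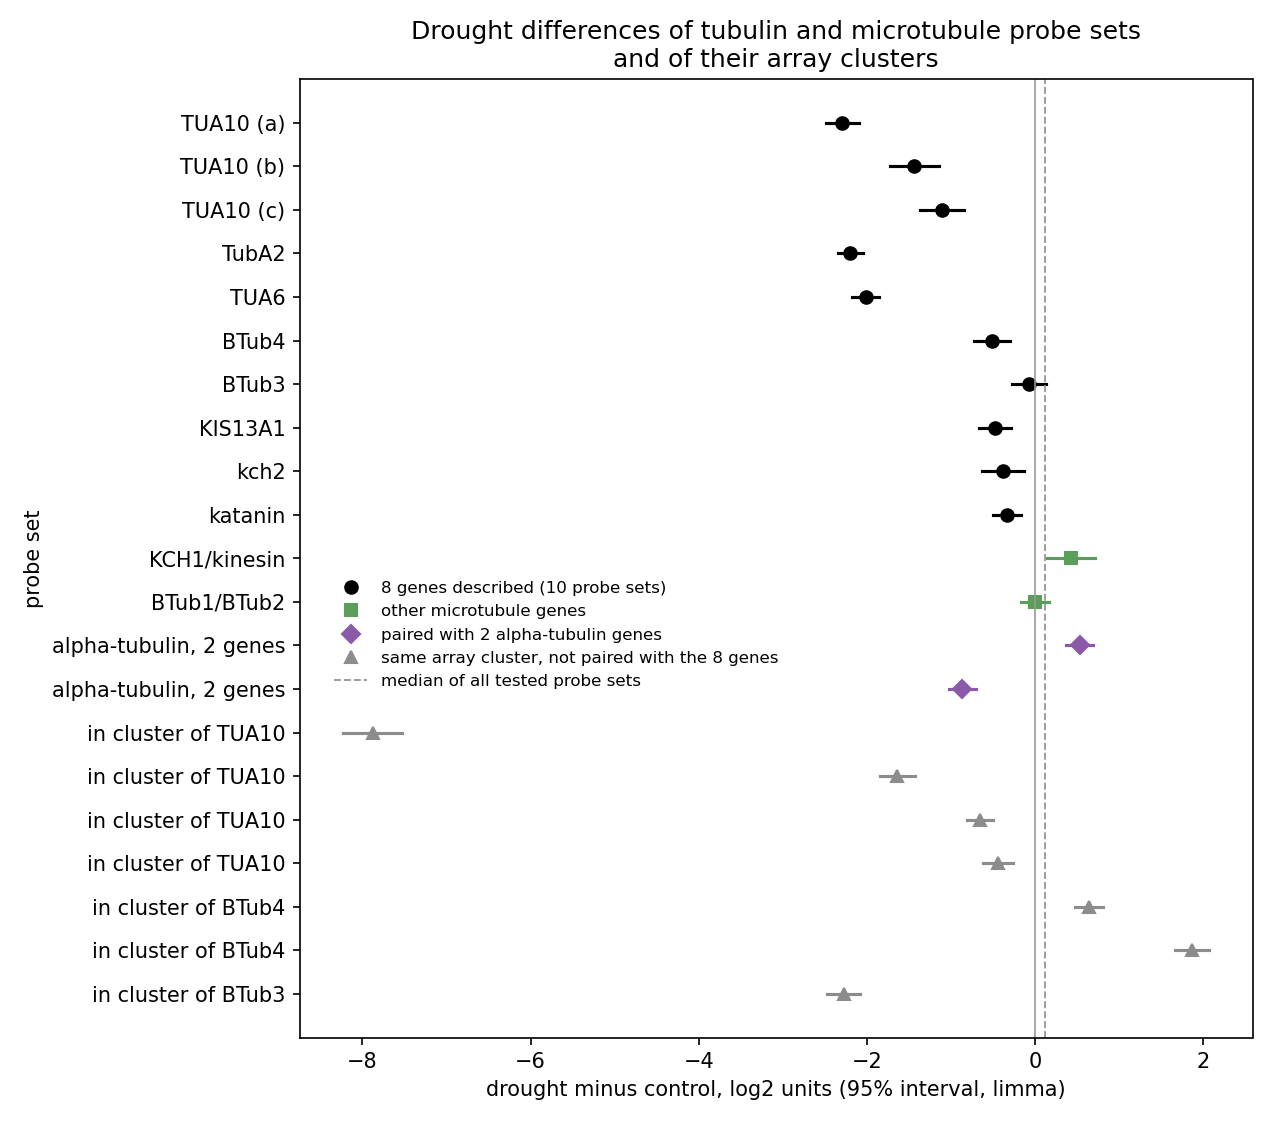
Difference between drought and control in log2 units (points) with its 95% interval from limma (lines) for the 10 probe sets described, for 2 other microtubule genes, for 2 probe sets paired with 2 alpha-tubulin genes at once, and for the 7 further probe sets of the same array clusters; the dashed line is the median of all tested probe sets, 0.12. The probe sets in the clusters of BTub4 and BTub3 lie at 1.87, 0.65 and -2.28, away from the values of the genes themselves.

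The microtubule motors and katanin changed less. KIS13A1 (LOC107888930, also named CMK1) encodes a kinesin-13, a family whose animal members depolymerise microtubule ends. It had values of -0.14, -0.25 and -0.34 on the drought arrays, against 0.26, 0.14 and 0.29 on the control arrays. The groups did not overlap, and the gene fell by 0.47 log2 units (1.39-fold, SE 0.08, limma adjusted p = 0.00122).

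The gene kch2 (LOC107953055) encodes a kinesin with a calponin homology domain, a plant type of motor that also binds actin filaments. Its only probe set is of antisense design, so the strand behind its value is not shown. It had values of -0.11, -0.45 and -0.08 on the drought arrays, against 0.26, 0.08 and 0.17 on the control arrays. Drought replicate 2 was well below the other two, and the closest arrays of the groups were 0.16 apart. The gene fell by 0.38 log2 units (1.30-fold, SE 0.11, limma adjusted p = 0.0171). Without control replicate 1 the call was lost, at -0.34 (limma adjusted p = 0.0597).

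The katanin gene (LOC107891685, also named KTN1) encodes a subunit of the microtubule-severing enzyme. It had values of -0.11, -0.14 and -0.15 on the drought arrays, against 0.26, 0.11 and 0.23 on the control arrays. The drought arrays lay within 0.04 of each other, below a wider spread in control. Katanin fell by 0.33 log2 units (1.26-fold, SE 0.07, limma adjusted p = 0.00379). The differences of KIS13A1, kch2 and katanin were each smaller in size than the largest called reporter difference of 0.51.

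Of the 10 microtubule genes with an older name on the array, which are these 8 and 2 others, 7 fell, 1 rose and 2 missed the threshold on the probe set used for each gene, with a median of -0.43, against 0.12 over all tested probe sets and -0.11 over the 246 genes with an older name. Of those 246 genes, 104 fell, 78 rose and 64 did not pass. The gene that rose was KCH1 (LOC107927185), a kinesin gene, with drought values of 0.28, 0.04 and 0.08 against -0.48, -0.04 and -0.37 in control. Its groups were only 0.08 apart at the closest, and it rose by 0.43 (SE 0.12, limma adjusted p = 0.0172). It did not pass without drought replicate 1 (limma adjusted p = 0.0688), without control replicate 1 (0.0599) or without control replicate 3 (0.0546), nor after quantile normalization (0.0637) or with spike-in centring (0.273). The beta-tubulin gene named BTub1 and BTub2 (LOC107962977) gave 0.00 (SE 0.07, 95% interval -0.16 to 0.17, limma adjusted p = 0.972), with overlapping groups. Adding it to the beta-tubulins took the alpha minus beta difference to -1.75.

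Cortical microtubules work beside the actin cytoskeleton and the cellulose synthesis machinery, so both were taken as context by gene name. Of 7 actin and annexin genes, 4 fell, none rose and 3 missed the threshold; the median was -0.31, with a range of -1.31 to 0.11. Beside that count stand the 104 of 246 genes with an older name that fell, and lower calls for 20.4% of all tested probe sets. With median, spike-in or reporter centring, and after quantile normalization, 5 of the 7 fell. Of 6 genes for cellulose synthase and related enzymes, a chitinase-like protein and sucrose synthases, 5 fell and 1 rose, with a median of -2.95 and a range of -4.84 to 0.77, and these counts were the same under those 4 scalings. The actin list thus lay near the beta-tubulins and motors in size, and the median of the cellulose list beyond the alpha-tubulins. That median lies midway between CelA1 (-3.97) and Sus1 (-1.93), so leaving out 1 gene can move it far. The lowest of the list was susC at -4.84. Its probe set shares a cluster with one of the expansin gene EXPA1 (-4.78). The value is therefore not shown to belong to susC. Without susC the middle value of the list is that of Sus1, -1.93, a smaller fall than those of TUA10 (a), TubA2 and TUA6. Leaving out CTL1 or CelA1 instead gives the same middle value.

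Markers of tissues and cell types were also matched by name. For scale, of the 246 genes with an older name 104 fell, 78 rose and 64 did not pass. Of all tested probe sets 20.4% were called lower and 35.3% higher. Of 19 genes known from cotton fibre or matched by name to fasciclin-like and expansin families, 15 fell, 1 rose and 3 did not pass, and their mean ran from -1.35 to -1.26 on the drought arrays, against 1.25 to 1.32 on the control arrays. Both genes matched by leaf photosynthesis names rose by 0.60, Rubisco activase RCA1 and the phosphoenolpyruvate carboxylase gene PEPC1. PEPC1 was matched by name only and is not shown to act in photosynthesis here. Of 6 genes matched by flower names 3 fell and 3 did not pass (list mean -0.60 to -0.41 in drought, 0.40 to 0.58 in control), though 1 of those that fell, APY1, has the name of an apyrase. The flower count is near the share of genes with an older name that fell. Of 6 matched by seed names 5 did not pass, and the sixth, MAT/SAMS, has the name of an S-adenosylmethionine synthetase. No gene matched the list for dividing cells. Centred values do not show whether any of these markers was present or at 0, and the part of other cell types in the fall of the alpha-tubulins was not tested.

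The genes whose pattern over the 6 arrays was most like that of each tubulin were found by Euclidean distance among the 245 other genes with an older name, as a description. Nearest to TUA10 (a) were MAT/SAMS (distance 0.19), the glutathione S-transferase gene GST (LOC107948407; 0.24) and TubA2 (0.25). Nearest to TubA2 were the expansin gene EXPA3D (0.19), MAT/SAMS (0.20) and GST (0.23), and nearest to TUA6 were the sucrose synthase gene Sus1 (0.24), TubA2 (0.25) and the stearoyl-ACP desaturase gene sad1 (0.28). All of these neighbours passed as lower, with differences of -2.31 to -1.84 log2 units. BTub4 lay nearest to Aux6 (0.14), GLU (0.19) and CNGC2 (0.21), and BTub3 to MADS-9 (0.13), EF1A1/EF1A4 (0.17) and CPA-FAS-1 (0.19). As deposited, the 3 neighbours of BTub4 passed as lower and the 3 of BTub3 did not pass. EF1A1/EF1A4, which gave -0.16 as deposited, passed as lower with median centring (-0.25, limma adjusted p = 0.0422), after quantile normalization (-0.28, limma adjusted p = 0.0272) and with spike-in centring (-0.40, limma adjusted p = 0.0103). No beta-tubulin was among the nearest 3 of any alpha-tubulin, nor any alpha-tubulin among those of a beta-tubulin. Distance between centred values depends largely on the size of the drought difference, so this follows from the differences already given.

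**Figure D4:**
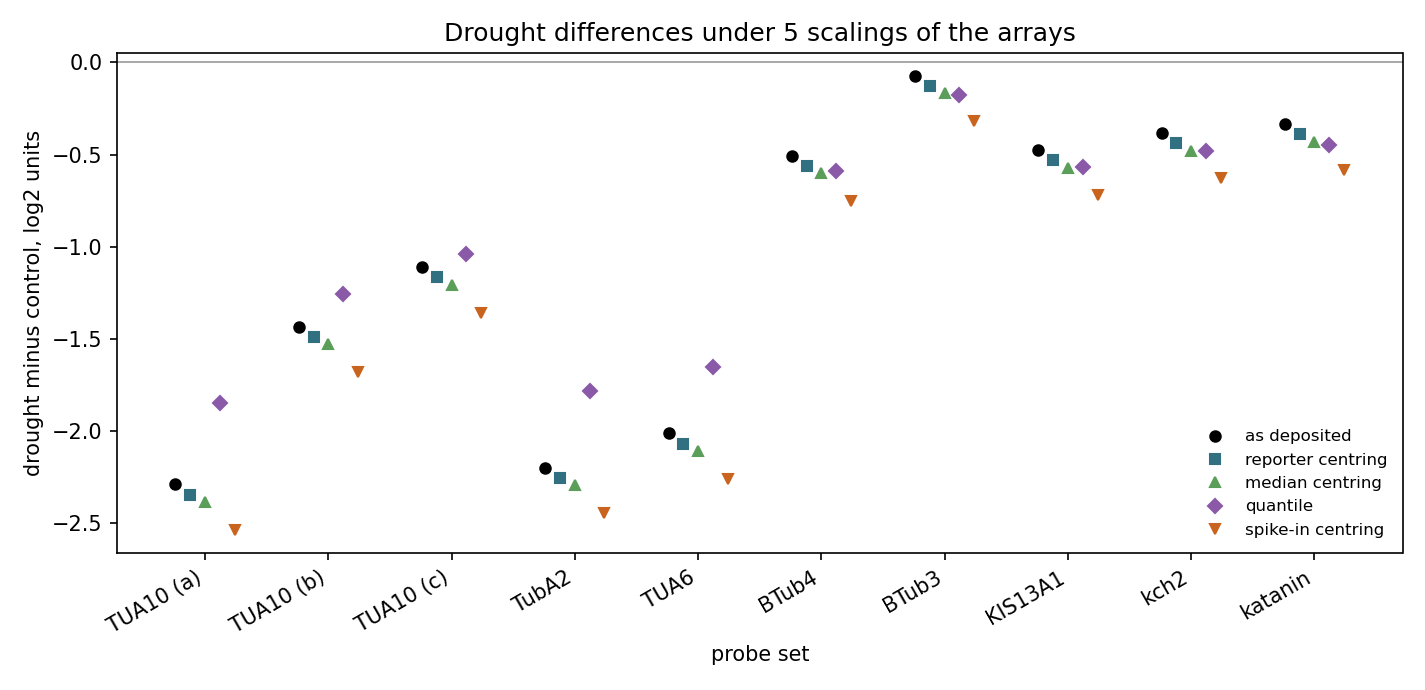
Difference between drought and control in log2 units for each of the 10 probe sets under 5 scalings of the arrays (symbols). All 50 values lie below 0; quantile normalization gives the smallest falls of the alpha-tubulins, -1.85 for TUA10 (a), and spike-in centring the largest of every probe set, -2.54 for TUA10 (a) and -0.32 for BTub3.

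Among the 10 probe sets described, those of the alpha-tubulins stayed apart from the others over the 5 scalings shown. The 5 alpha-tubulin probe sets lay between -2.54 and -1.04, and those of the beta-tubulins, kinesins and katanin between -0.75 and -0.07. This does not extend to the probe sets paired with 2 alpha-tubulin genes, at 0.53 and -0.86 as deposited. Nor does it extend to the further probe set in the cluster of BTub3, at -2.28. Each centring moves every difference by the same amount, so the small falls necessarily moved relatively more than the large ones. Quantile normalization was not such a shift. It made the alpha-tubulin falls smaller, from -2.29 to -1.85 for TUA10 (a). Those of the beta-tubulins, kinesins and katanin became larger, from -0.33 to -0.45 for katanin. BTub4 ranged from -0.75 to -0.51 and katanin from -0.58 to -0.33 over these scalings.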

How the data were processed

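Leaf RNA of 3 drought and 3 control cotton samples was measured on Affymetrix cotton arrays, 1 per sample. The authors deposited log2 values from RMA, as named in the submitters' processing notes; its version and the centring step are not given in the sources used here. Scale, centring (largest absolute probe set median 5e-07) and direction (higher value for more signal) are read from the values and from RMA. Of 24132 probe sets, 103 Affymetrix controls were left out. The platform annotation gives 1 gene for 697 probe sets and several for 46; all 520 genes were found in the RefSeq table of assembly Gossypium_hirsutum_v2.1, used for names only. Positions are left out, since the array's build is not named.

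The groups were compared in limma 3.58.1 (lmFit, eBayes; R 4.3.3), without a block, two-sided, with p-values adjusted by Benjamini-Hochberg over 24029 probe sets. Every SE and adjusted p of a gene comes from that fit (n = 3 arrays per group), which was tested on simulated data. For 1 value per gene, sense design came before antisense, then ID suffixes in the order _at, _a_at, _s_at, _x_at, with ties broken by ID. The genes named are the 8, other genes of a microtubule name list, probe sets in the same clusters and, for each tubulin, the 3 genes nearest in pattern. Members, lists and tests were chosen with earlier results of these data known; the pair tests and the addition of BTub1/BTub2 came after seeing the values. Same-numbered drought and control arrays had correlations of deviations from their group means of 0.033 to 0.074. Those of different-numbered arrays were lower, -0.054 to 0.007. Alternatives were 4 array scalings, leaving out each array, a replicate block, robust eBayes, array weights, sense-design probe sets and 1-gene probe sets. A filter on dim probe sets was not possible on centred values.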

Additional observations from a re-analysis of the deposited data

How the results depend on the processing

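The 10 probe sets kept their direction and side of the threshold in every alternative run, with 2 exceptions. The fall of kch2 no longer passed without control replicate 1. BTub3, which did not pass as deposited, gave -0.1228 to 0.01165 without 1 array at a time, turning positive without drought replicate 1, and passed at -0.3188 with spike-in centring. Adjusted p-values after spike-in centring are not comparable with those as deposited. The number of the 10 that fell was 8 to 9 without 1 array at a time and 10 with spike-in centring. With sense-design probe sets alone, where 7 of the 10 remain, it was 6. The alpha minus beta difference (-1.652 as deposited) was -1.225 after quantile normalization, -1.878 with sense-design probe sets alone, -1.52 with all tubulin probe sets weighted equally and -1.75 with BTub1/BTub2 added, and -1.676 to -1.62 without 1 array at a time. Over all probe sets, spike-in centring gave 3989 higher in drought, against 8485 as deposited, and 7255 lower, against 4895 as deposited. The count of 10 with spike-in centring thus came with more lower calls among all probe sets, and is not specific to the 10. Leaving out 1 array gave 11878 to 13092 changed. The values of BTub1/BTub2, near 0 as deposited, turned negative with median centring (-0.09203), quantile normalization (-0.115), spike-in centring (-0.2434), reporter centring (-0.05214) and array weights (-0.02252), and without drought replicate 1 (-0.02423) or control replicate 2 (-0.03942), within a range of -0.03942 to 0.03188 without 1 array at a time; none of these passed. MADS-9 (-0.1031 to 0.09593 without 1 array at a time) turned to 0.09593 without drought replicate 1 and 0.04898 with array weights. CPA-FAS-1 (-0.1003 to 0.1064) turned to 0.1064 without drought replicate 1, 0.03681 without control replicate 2 and 0.04598 with array weights. EF1A1/EF1A4 passed as lower with median and spike-in centring and after quantile normalization. The cause was not tested. The labels do not say whether same-numbered drought and control samples belong together. With the replicate block 13244 probe sets changed, against 13380, and 9 of the 10 fell, as without it. With 3 arrays per group, precision is limited by their number throughout.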
